A study of Mus musculus with 6 samples.

Results

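The genes of the Wnt pathway were followed in cultured mouse neural stem cells, the dividing precursors of neurons and glia. An entry of the deposited gene table was taken as a member when its symbol named a Wnt ligand (a numbered Wnt gene), a frizzled receptor (Fzd), a secreted frizzled-related protein (Sfrp) or 1 of 24 listed pathway genes, which gave 57 of 54884 entries. The rule goes by symbols alone, but it was drawn up with earlier results of these data known. The cells came from C57BL/6 embryos at day 14 of gestation, were dissected from the hippocampus and were used at passages 3 to 8. In 3 libraries they carried a lentivirus with an siRNA against circHIPK2, the circular RNA of the Hipk2 gene, and in 3 libraries a lentivirus with the control siRNA circCon. Both groups thus carried a lentivirus. Nothing in the labels ties the replicates to different cultures, and the p-values therefore speak of the scatter among 6 libraries, part or all of which may be technical. The libraries were made from poly(A) RNA, and no value of circHIPK2, which has no poly(A) tail, is used here, so its knockdown was not checked.

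Wnt proteins are secreted, lipid-modified signals. Bound to a frizzled receptor and an Lrp5 or Lrp6 co-receptor, they stop a cytoplasmic complex of Axin, Apc and the kinase Gsk3b from marking β-catenin for degradation, and β-catenin then works with Tcf and Lef factors on target genes, several of which are inhibitors of the pathway. In the developing hippocampus Wnt signals from the neighbouring cortical hem are needed for progenitors to expand.

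With circHIPK2 siRNA 0 of the 32 members tested rose or fell (limma with Benjamini-Hochberg adjustment, called at an adjusted p below 0.05). Values are FPKM, fragments scaled to transcript length and to all mapped fragments, and the test took in entries averaging 1 FPKM or more over the 6 libraries. Of all 13702 entries tested 0.255% were called, a background so low that 0 of 32 cannot be told apart from it. Among those called were 10 liver markers and 8 of 9 entries tied to the ribosomal RNA locus, both described below. With limma's library weights 1 member, Ctnnb1, was called. The lowest adjusted p of a member was 0.195 (limma with Benjamini-Hochberg adjustment). At an unadjusted p below 0.05, 5 members were lower and 0 higher, against 15.5% of all entries lower and 1.83% higher. These 5 were the β-catenin gene Ctnnb1, the feedback inhibitor gene Nkd1, the ligand gene Wnt7a, the antagonist gene Sfrp2 and the receptor gene Fzd2. The siRNA libraries lay entirely below the controls for 9 of 32 members and entirely above for 1, against 22.1% and 2.65% of all entries. The median log2 fold change on the log2(FPKM + 1) scale was −0.12 over the members and −0.12 over all entries, and 16 members lay above the median of all entries and 16 below it. Of the 25 members under the filter, 15 were above 0 in all 6 libraries and 13 averaged below 0.05 FPKM.

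A few facts of the libraries touch every value that follows. Depth, estimated from the steps between low FPKM values, was 18320000 to 20990000 fragments in siRNA libraries and 19880000 to 21900000 in controls. A set of 9 entries from the ribosomal RNA locus, or tracking it across the libraries, held 11.5%, 3.24% and 19.9% of all FPKM in siRNA libraries 1 to 3, against 0.58%, 0.426% and 0.321% in control libraries 1 to 3 and are part of the total to which FPKM are scaled. With these entries removed and columns rescaled, the median of all entries was 0.06 and that of the members 0.04. The removal thus raised values across the table. Log2 fold changes given below with these entries removed stand beside a median of 0.06, and those of the main fit beside −0.12. All 10 liver marker genes fell, summing to 2.10 to 2.21 FPKM with the siRNA against 39.9 to 64.8 FPKM in controls. The 10 stem cell markers, Nes and Sox2 among them, summed to 1765 to 2226 FPKM with the siRNA and 1951 to 2498 FPKM in controls, and none was called. Fabp7, Hes5 and Hes1 lay below the controls without overlap, as did 22.1% of all entries, at log2 fold changes of −0.66, −0.71 and −0.20. The other stem cell markers overlapped, Vim having the highest log2 fold change at 0.33. The 7 neuron markers summed to 93.1 to 105 FPKM with the siRNA and 120 to 130 FPKM in controls. Most of that was Map2, at 84.8 to 93.7 FPKM with the siRNA and 106 to 115 FPKM in controls. Map2, Tubb3 and Snap25 lay lower without overlap, while Dcx, Neurod1, Rbfox3 and Stmn2 overlapped, Rbfox3 and Stmn2 with higher siRNA means. The 5 astrocyte markers summed to 193 to 434 FPKM with the siRNA and 224 to 409 FPKM in controls. They went both ways, with log2 fold changes of 0.75 for Gfap and 0.13 for Aqp4. Gja1 was at −0.40, S100b at −0.42 and Aldh1l1 at −0.15. All overlapped and none was called. The 6 of the oligodendrocyte lineage summed to 606 to 759 FPKM with the siRNA and 758 to 822 FPKM in controls. Most of that was Olig1 and Olig2. Log2 fold changes ran from −0.66 for Pdgfra to 0.05 for Mbp, the only positive one, all with overlap and none called. Markers of microglia, endothelium and fibroblasts each summed to no more than 0.922 FPKM in any library. The 5 hippocampal progenitor markers summed to 51.8 to 58.7 FPKM with the siRNA and 59.2 to 74.5 FPKM in controls, Lhx2 having a log2 fold change of −0.56 and Prox1 of 0.31, and none of the 4 tested was called. The 6 markers of choroid plexus and cortical hem summed to 7.19 to 8.52 FPKM with the siRNA and 7.59 to 11.6 FPKM in controls, nearly all of it Otx2 and Ttr. Of these Ttr, which is also on the liver list, fell, and the hem marker Lmx1a was at most 0.0294 FPKM in any library. The part of these differences in the results below was not tested, and in bulk RNA fewer cells of a type and less RNA per cell cannot be told apart.

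**Figure D1:**
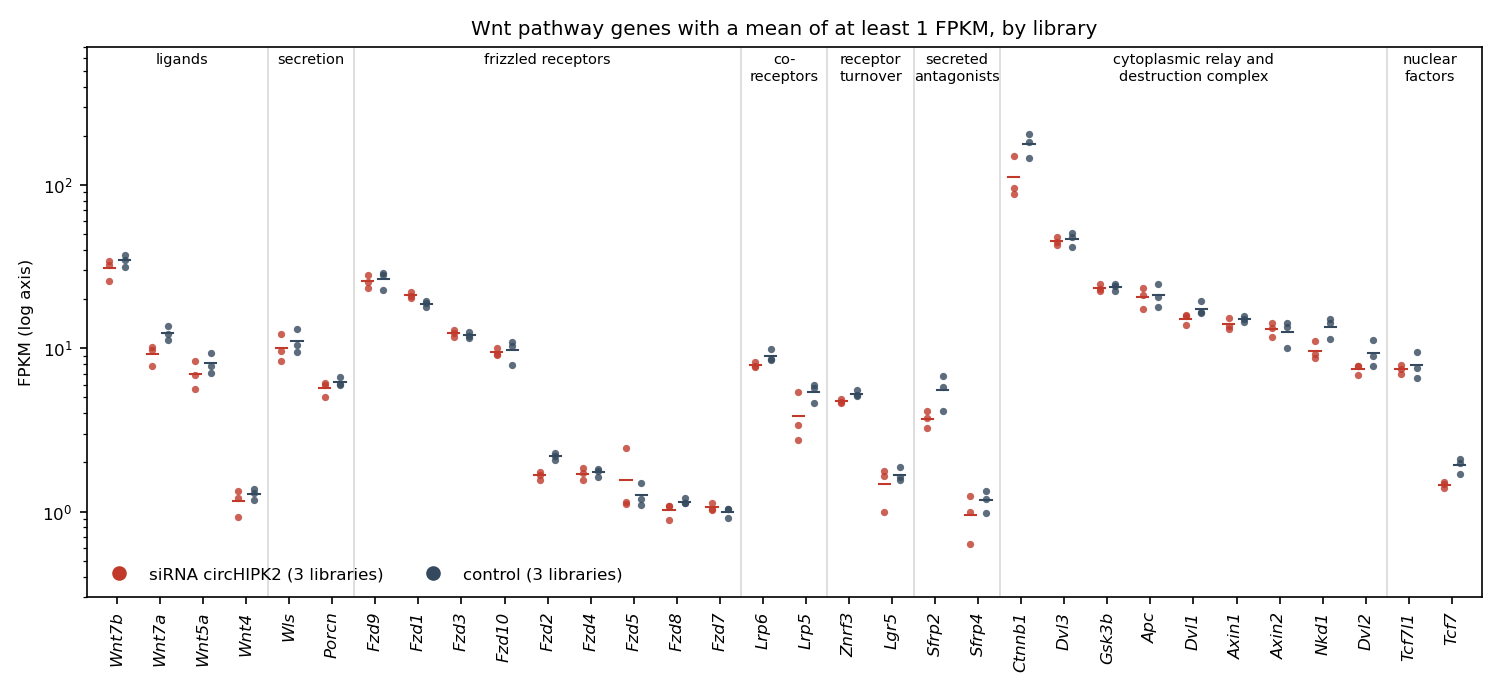
FPKM on a log axis of the 32 members with a mean of at least 1 FPKM, grouped by role, with points for the 3 siRNA circHIPK2 libraries (red, left of each pair) and the 3 control libraries (dark, right) and lines at the means. Ctnnb1 stands highest, at 112 FPKM with the siRNA and 179 FPKM in controls, and Fzd9 to Fzd2 keep the same order in both groups.

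Of 19 ligand genes 4 passed the filter, and Wnt7b and Wnt7a, a closely related pair, led them. Wnt7b had 32.5, 34.2 and 25.9 FPKM in siRNA libraries 1 to 3, against 31.5, 34.9 and 37.4 FPKM in control libraries 1 to 3. The groups overlapped, and the log2 fold change was −0.17 (SE 0.13; limma, Benjamini-Hochberg adjusted p = 0.487). It made up 62.1 ± 2.04% of the summed ligand FPKM with the siRNA and 60.0 ± 3.24% in controls (SD, n = 3 each). Wnt7a had 10.2, 9.78 and 7.76 FPKM in siRNA libraries 1 to 3, against 12.3, 13.6 and 11.3 FPKM in control libraries 1 to 3. All siRNA libraries lay below all controls, as for 22.1% of entries, with library 3 the lowest. Its log2 fold change was −0.39 (SE 0.12, 95% interval −0.67 to −0.11; limma, Benjamini-Hochberg adjusted p = 0.203), and −0.20 with the 9 ribosomal RNA entries removed.

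Wnt5a, which mostly signals without β-catenin, had 6.99 ± 1.35 FPKM with the siRNA and 8.13 ± 1.18 FPKM in controls (SD, n = 3 each). Its range overlapped that of Wnt7a with the siRNA but not in controls. Wnt4 had 1.21, 1.33 and 0.932 FPKM in siRNA libraries 1 to 3, against 1.18, 1.37 and 1.29 FPKM in control libraries 1 to 3, which overlap (log2 fold change of −0.08, SE 0.12; limma, Benjamini-Hochberg adjusted p = 0.723). The other 15 ligand genes were under the filter, none above 0.415 FPKM in any library, and 10 of them averaged below 0.05 FPKM, about the value of 1 fragment of a 1 kb transcript. Wnt3a, the ligand best known from the cortical hem, was listed at 0 in the 3 siRNA libraries and in control libraries 1 and 2, and at 0.0339 FPKM in control library 3. Wnt2 had 0.359, 0.290 and 0.398 FPKM in siRNA libraries 1 to 3 and 0.254, 0.181 and 0.238 FPKM in control libraries 1 to 3. It was the only 1 of the 25 members under the filter to lie entirely above the controls, against 6.3% of entries under the filter and above 0 in a library. In a fit without the filter its adjusted p was 0.36 (limma with Benjamini-Hochberg adjustment).

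Export of Wnt proteins needs the acyltransferase Porcn and the carrier Wls. Wls had 8.35, 12.3 and 9.64 FPKM in siRNA libraries 1 to 3, against 10.5, 9.49 and 13.1 FPKM in control libraries 1 to 3. Porcn had 6.12, 5.94 and 5.07 FPKM in siRNA libraries 1 to 3, against 6.06, 6.00 and 6.66 FPKM in control libraries 1 to 3. The groups overlapped for both, with log2 fold changes of −0.12 (SE 0.16; limma, Benjamini-Hochberg adjusted p = 0.689) and −0.11 (SE 0.10; adjusted p = 0.576).

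Among the receptors, 9 of 10 frizzled genes passed the filter. Fzd9 was the most abundant, with 25.5, 28.2 and 23.6 FPKM in siRNA libraries 1 to 3, against 29.0, 22.6 and 28.3 FPKM in control libraries 1 to 3. Its groups overlapped (log2 fold change of −0.04, SE 0.12; limma, Benjamini-Hochberg adjusted p = 0.878). Fzd1, Fzd3 and Fzd10 came next, and Fzd2, Fzd4, Fzd5, Fzd7 and Fzd8 all averaged between 0.998 and 2.18 FPKM in either group. Fzd3 had 12.4 ± 0.638 FPKM with the siRNA and 12.1 ± 0.501 FPKM in controls, and Fzd10 9.47 ± 0.551 FPKM with the siRNA and 9.72 ± 1.59 FPKM in controls (SD, n = 3 each). From Fzd9 to Fzd2 the neighbours in this order did not overlap in level in either group, whereas Fzd4 overlapped Fzd2 and Fzd5 with the siRNA. Fzd6 was at 0.0439 FPKM with the siRNA and 0.0442 FPKM in controls.

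Fzd1 and Fzd2 lay on opposite sides. Fzd1 had 20.5, 22.1 and 20.9 FPKM in siRNA libraries 1 to 3, against 19.6, 18.9 and 17.8 FPKM in control libraries 1 to 3, and was the 1 tested member whose siRNA libraries all lay above the controls. Its log2 fold change was 0.17 (SE 0.09, 95% interval −0.04 to 0.37; limma, Benjamini-Hochberg adjusted p = 0.36), and 0.36 with the 9 ribosomal RNA entries removed (adjusted p = 0.233, limma). Fzd2 had 1.76, 1.56 and 1.68 FPKM in siRNA libraries 1 to 3, against 2.08, 2.18 and 2.27 FPKM in control libraries 1 to 3, without overlap. Its log2 fold change was −0.25 (SE 0.10; limma, Benjamini-Hochberg adjusted p = 0.269), and −0.12 with those entries removed. Within a library Fzd1 stood 12.7 ± 1.30-fold above Fzd2 with the siRNA and 8.64 ± 0.80-fold in controls (SD, n = 3 each). With Fzd1 above and Fzd2 below all controls, their ratio had to separate the groups. This pair was named for its highest and lowest fold change among the frizzled genes, and its ratio is a description only. Of the 496 ratios that 32 members can form, 99, or 20%, separated the groups, and this one was number 13 by the log2 gap between them. By share of the summed frizzled FPKM, Fzd1 made up 27.9 ± 0.931% with the siRNA and 25.2 ± 1.94% in controls, and Fzd9 33.9 ± 1.20% with the siRNA and 35.6 ± 2.61% in controls (SD, n = 3 each). Of the 9 frizzled genes, 8 had a log2 fold change above the median of all entries, beside 16 of 32 members. This count depended on the scaling, since Fzd8, among these 8, lay below the median under 2 other scalings. It was at −0.021 against a median of −0.0012 with median-of-ratios scaling. With the 9 ribosomal RNA entries removed it was at 0.014 against a median of 0.058. The log2(FPKM + 1) scale, which understates changes of weakly expressed genes such as Fzd8, may also bear on this count. Fzd8 lay lower without overlap, at 1.02 ± 0.11 FPKM with the siRNA and 1.15 ± 0.0532 FPKM in controls, Fzd4 overlapped at 1.71 ± 0.153 FPKM with the siRNA and 1.74 ± 0.109 FPKM in controls, and Fzd7 at 1.06 ± 0.0584 FPKM with the siRNA and 0.998 ± 0.0674 FPKM in controls. Fzd5 had 1.15, 2.45 and 1.12 FPKM in siRNA libraries 1 to 3, so that library 2 stood apart, against 1.27 ± 0.209 FPKM in controls (SD, n = 3).

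Both co-receptor genes were expressed. Lrp6 had 7.81, 8.23 and 7.73 FPKM in siRNA libraries 1 to 3, against 8.60, 8.46 and 9.86 FPKM in control libraries 1 to 3. It lay lower without overlap, by a log2 fold change of −0.16 (SE 0.10; limma, Benjamini-Hochberg adjusted p = 0.408) and 0.03 with the 9 ribosomal RNA entries removed. Lrp5 had 5.40, 2.76 and 3.40 FPKM in siRNA libraries 1 to 3, against 5.93, 5.72 and 4.63 FPKM in control libraries 1 to 3. siRNA library 1 lay among the controls and siRNA libraries 2 and 3 below them, with a log2 fold change of −0.44 (SE 0.19; limma, Benjamini-Hochberg adjusted p = 0.289), which was −0.27 with the ribosomal RNA entries removed and −0.19 with library weights.

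Znrf3 and Rnf43 are ubiquitin ligases that remove frizzled receptors from the surface, and Lgr4 and Lgr5 are R-spondin receptors that hold these ligases back. Znrf3 had 4.68, 4.89 and 4.62 FPKM in siRNA libraries 1 to 3, against 5.19, 5.11 and 5.52 FPKM in control libraries 1 to 3. The groups did not overlap, by a log2 fold change of −0.13 (SE 0.09; limma, Benjamini-Hochberg adjusted p = 0.463), close to the median of all entries. Lgr5 had 1.65, 0.992 and 1.78 FPKM in siRNA libraries 1 to 3, against 1.63, 1.56 and 1.87 FPKM in control libraries 1 to 3, with library 2 of the siRNA group alone below the controls (log2 fold change of −0.13, SE 0.15; limma, Benjamini-Hochberg adjusted p = 0.647). Under the filter, Rnf43 had 0.772 FPKM with the siRNA and 0.957 FPKM in controls on average, without overlap, as for 5.13% of entries under the filter. Lgr4 ranged from 0.418 to 1.21 FPKM with the siRNA and from 0.544 to 1.31 FPKM in controls.

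Secreted antagonists were scarce, and Sfrp2, which binds Wnt ligands outside the cell, led the 8 listed. It had 3.77, 4.11 and 3.27 FPKM in siRNA libraries 1 to 3, against 6.73, 4.15 and 5.78 FPKM in control libraries 1 to 3. The groups were only just apart, siRNA library 2 standing close to control library 2. Its log2 fold change was −0.46 (SE 0.16, 95% interval −0.82 to −0.10; limma, Benjamini-Hochberg adjusted p = 0.221), and −0.29 with the 9 ribosomal RNA entries removed. Sfrp4 had 0.637, 1.25 and 0.996 FPKM in siRNA libraries 1 to 3, against 0.983, 1.35 and 1.20 FPKM in control libraries 1 to 3, with overlap (log2 fold change of −0.16, SE 0.15; limma, Benjamini-Hochberg adjusted p = 0.577). The other 6 were under the filter, and Sfrp1, Sfrp5, Dkk3 and Notum averaged 0.167 to 0.403 FPKM with the siRNA and 0.229 to 0.41 FPKM in controls. Wif1, the Wnt inhibitory factor, had 0.0856, 0.0970 and 0.0724 FPKM in siRNA libraries 1 to 3 and 0.204, 0.191 and 0.219 FPKM in control libraries 1 to 3. The siRNA libraries lay below all controls, and the values rest on few fragments, since 1 fragment of a 1 kb transcript is worth 0.0457 to 0.0546 FPKM. In a fit without the filter Wif1 had the lowest adjusted p of the members, 0.133 (limma with Benjamini-Hochberg adjustment). Dkk1, a ligand of the Lrp co-receptors, was listed at 0 in 5 of 6 libraries.

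**Figure D2:**
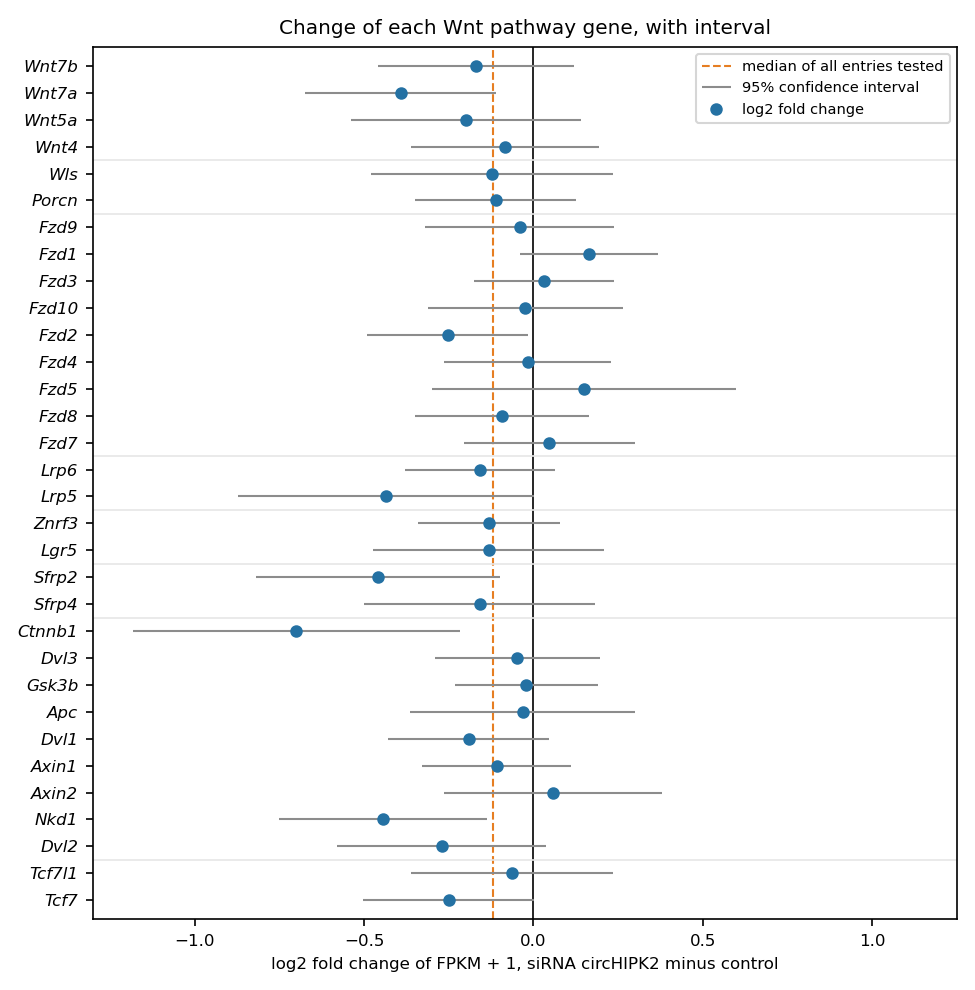
Log2 fold change of FPKM + 1, siRNA circHIPK2 minus control (points), with its 95% confidence interval (lines) for the 32 members tested. The dashed line marks the median of all entries at −0.12, around which most members lie, while Ctnnb1 at −0.70, Sfrp2 at −0.46, Nkd1 at −0.45, Lrp5 at −0.44 and Wnt7a at −0.39 are the lowest.

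In the cytoplasm, Ctnnb1 had the lowest log2 fold change of the 32 members tested, on the log2(FPKM + 1) scale. It had 88.6, 150 and 95.8 FPKM in siRNA libraries 1 to 3, against 184, 146 and 206 FPKM in control libraries 1 to 3. siRNA libraries 1 and 3 lay below all controls, and siRNA library 2 lay just above control library 2. The mean was 112 ± 33.8 FPKM with the siRNA and 179 ± 30.5 FPKM in controls (SD, n = 3 each), with a log2 fold change of −0.70 (SE 0.21, 95% interval −1.18 to −0.22; limma, Benjamini-Hochberg adjusted p = 0.195). The siRNA library with the highest Ctnnb1 value is the one with 3.24% of FPKM in the ribosomal RNA entries, against 11.5% and 19.9% in the others, and the part of this share in the result was not tested. With those entries removed and columns rescaled the log2 fold change was −0.49 (limma, Benjamini-Hochberg adjusted p = 0.382). When limma weighted the libraries by quality, Ctnnb1 was called at −0.90 (adjusted p = 0.0469), a setting in which 320 entries were called instead of 35. Over the fits that left out 1 library its log2 fold change lay between −0.93 and −0.56, with adjusted p = 0.112 or more (limma).

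The genes of the destruction complex lay nearer to the background. Gsk3b had 23.4 ± 1.22 FPKM with the siRNA and 23.8 ± 1.27 FPKM in controls, Apc 20.6 ± 2.99 FPKM with the siRNA and 21.1 ± 3.42 FPKM in controls, and Axin1 14.0 ± 1.14 FPKM with the siRNA and 15.2 ± 0.676 FPKM in controls (SD, n = 3 each). Of the dishevelled genes, which relay the signal from frizzled, Dvl3 had 45.2 ± 2.72 FPKM with the siRNA and 46.9 ± 4.72 FPKM in controls, Dvl1 15.2 ± 1.09 FPKM with the siRNA and 17.5 ± 1.63 FPKM in controls, and Dvl2 7.50 ± 0.526 FPKM with the siRNA and 9.35 ± 1.80 FPKM in controls (SD, n = 3 each). The groups overlapped for all of these but Dvl1. The 95% intervals of the log2 fold change ran from −0.23 to 0.19 for Gsk3b and from −0.36 to 0.30 for Apc.

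**Figure D3:**
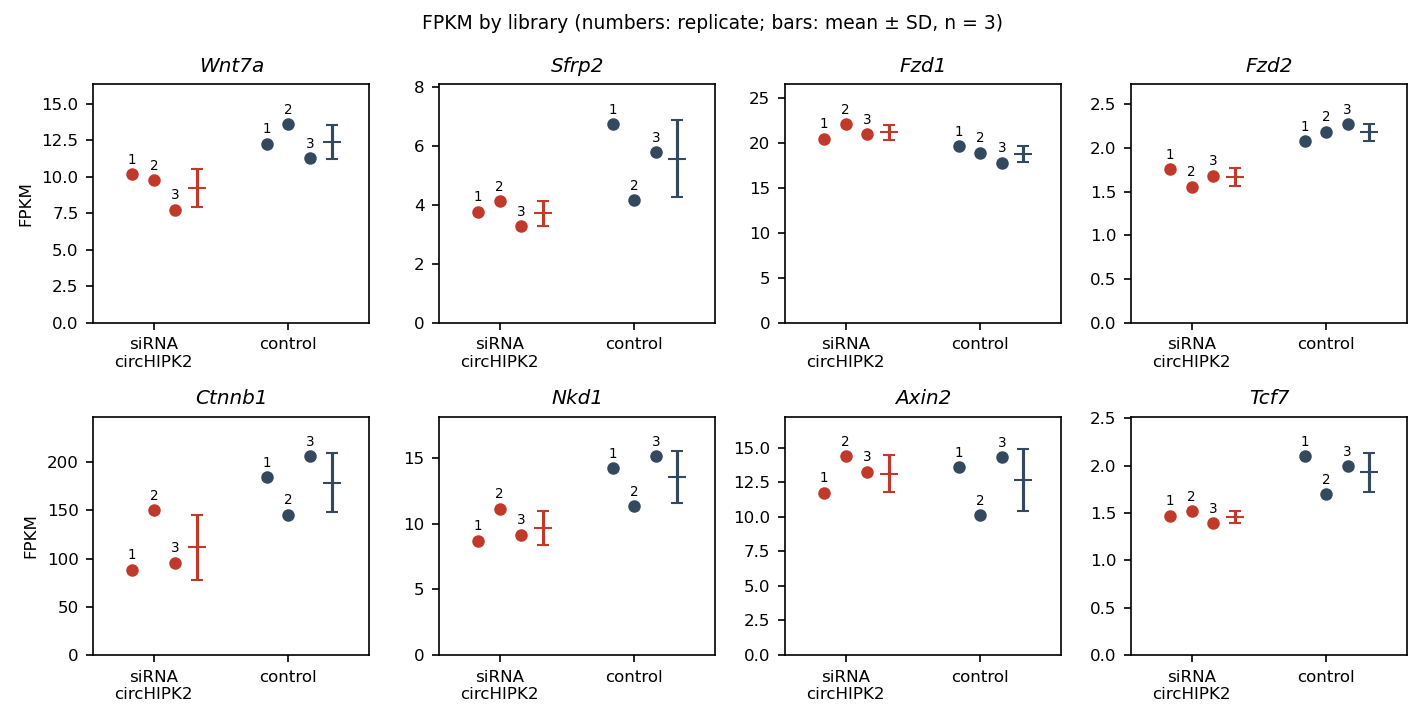
FPKM of 8 members in each library (points, numbered by replicate), with mean ± SD beside them (n = 3), siRNA circHIPK2 on the left and control on the right of each panel. Wnt7a, Sfrp2, Fzd2, Nkd1 and Tcf7 lie lower in all siRNA libraries and Fzd1 higher, while Ctnnb1 and Axin2 overlap; none of the 8 passed the test.

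Axin2 and Nkd1 are both negative feedback genes that β-catenin is known to switch on, and their values are set side by side here. The 300 bases that RefSeq (GRCm38.p6) places from 250 before to 50 after the start of each gene are printed because these are the targets that the comparison turns on. They are given 5′ to 3′ on the gene's strand, Nkd1 at chr8:88527383-88527682 (plus strand) and Axin2 at chr11:108920099-108920398 (plus strand), with CG dinucleotides in capitals.
Nkd1: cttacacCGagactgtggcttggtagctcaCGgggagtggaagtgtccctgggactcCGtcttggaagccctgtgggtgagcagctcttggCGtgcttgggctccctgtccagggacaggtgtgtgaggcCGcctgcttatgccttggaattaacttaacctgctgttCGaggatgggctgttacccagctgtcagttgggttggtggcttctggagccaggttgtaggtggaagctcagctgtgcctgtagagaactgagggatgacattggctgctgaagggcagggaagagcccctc
Axin2: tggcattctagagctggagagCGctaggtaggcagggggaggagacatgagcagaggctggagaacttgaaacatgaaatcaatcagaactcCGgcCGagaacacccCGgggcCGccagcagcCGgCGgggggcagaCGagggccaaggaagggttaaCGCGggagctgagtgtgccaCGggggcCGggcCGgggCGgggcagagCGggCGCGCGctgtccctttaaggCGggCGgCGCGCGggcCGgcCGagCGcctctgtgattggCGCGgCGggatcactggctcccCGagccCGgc
The Nkd1 window held 6 CG dinucleotides and 58.3% G and C, and the Axin2 window 31 and 70.0%. The medians were 7 and 52.7% over the 32851 RefSeq promoters of this length, and 24 and 66.7% over the 47 promoters of the members. The core of the Tcf and Lef motif, CTTTG on either strand, was in neither window and in 53.9% of all promoters. It was in 21 of 47 promoters of the members, or 44.7%. The longer CTTTGAT, which contains it, was in neither window and in 3.73% of all promoters.

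Nkd1, which binds dishevelled, had 8.72, 11.1 and 9.19 FPKM in siRNA libraries 1 to 3, against 14.2, 11.3 and 15.1 FPKM in control libraries 1 to 3. All siRNA libraries lay below all controls, though siRNA library 2 and control library 2 nearly met. The log2 fold change was −0.45 (SE 0.13, 95% interval −0.75 to −0.14; limma, Benjamini-Hochberg adjusted p = 0.195), and −0.26 with the 9 ribosomal RNA entries removed. Axin2, a scaffold of the destruction complex, had 11.7, 14.4 and 13.3 FPKM in siRNA libraries 1 to 3, against 13.6, 10.1 and 14.3 FPKM in control libraries 1 to 3. Its groups overlapped, with a log2 fold change of 0.06 (SE 0.14, 95% interval −0.26 to 0.38; limma, Benjamini-Hochberg adjusted p = 0.844). That sign turned to −0.07 with library weights, and to −0.09 without control library 2.

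The ratio of Nkd1 to Axin2 within a library was 0.742, 0.775 and 0.692 in siRNA libraries 1 to 3, against 1.05, 1.12 and 1.06 in control libraries 1 to 3. The means were 0.737 ± 0.0418 with the siRNA and 1.08 ± 0.0406 in controls (SD, n = 3 each), without overlap. A ratio within a library does not depend on the total to which FPKM are scaled. Among the siRNA libraries it was 0.775 where the ribosomal RNA entries held 3.24% of FPKM, 0.742 at 11.5% and 0.692 at 19.9%, and the part of that share in the result was not tested. The pair was picked after its values were seen. It was number 2 of the 496 ratios by the log2 gap between the groups, 20% of which separated them. With 3 libraries a group, the smallest two-sided p of an exact permutation test is 0.1. Ctnnb1 over Axin1, likewise picked after its values were seen, was 7.86 ± 1.73 with the siRNA and 11.7 ± 1.51 in controls (SD, n = 3 each), just short of overlap between siRNA library 2 and control library 2. Wnt7b over Wnt7a was 3.34 ± 0.151 with the siRNA and 2.82 ± 0.433 in controls (SD, n = 3 each), with overlap. By level, Axin2 lay above Nkd1 in all 3 siRNA libraries without overlap of their ranges, whereas in controls Nkd1 had the higher mean and the ranges overlapped.

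**Figure D4:**
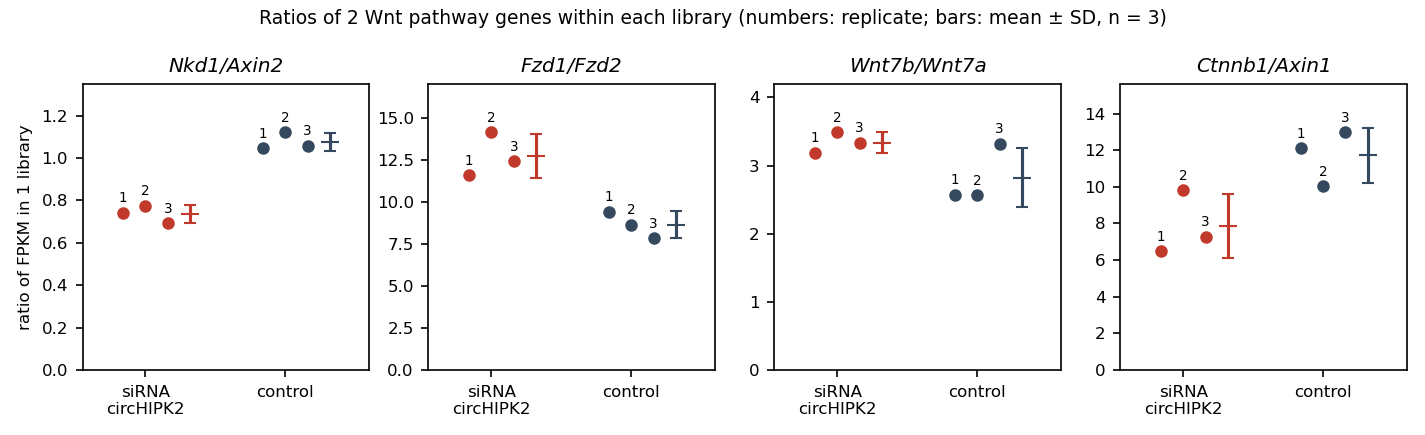
Ratio of FPKM of 2 members in each library (points, numbered by replicate), with mean ± SD beside them (n = 3), siRNA circHIPK2 on the left and control on the right of each panel. Nkd1 over Axin2 and Fzd1 over Fzd2 do not overlap between the groups, at means of 0.737 with the siRNA against 1.08 in controls and 12.7 with the siRNA against 8.64 in controls. Ctnnb1 over Axin1 is only just apart, and Wnt7b over Wnt7a overlaps.

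Of the 9 members listed as feedback targets, 5 passed the filter. Of these Nkd1, Tcf7 and Znrf3 lay lower without overlap, as did 22.1% of all entries, and Axin2 and Lgr5 overlapped. None of the 5 passed the test. Among the nuclear factors, Tcf7l1, which is mainly a repressor of target genes, had 7.85, 7.49 and 6.95 FPKM in siRNA libraries 1 to 3, against 7.56, 9.49 and 6.58 FPKM in control libraries 1 to 3. The groups overlapped (log2 fold change of −0.06, SE 0.13; limma, Benjamini-Hochberg adjusted p = 0.815). Tcf7, itself a Wnt target in several tissues, had 1.47, 1.52 and 1.39 FPKM in siRNA libraries 1 to 3, against 2.10, 1.70 and 1.99 FPKM in control libraries 1 to 3. It lay lower without overlap, at a log2 fold change of −0.25 (SE 0.11; limma, Benjamini-Hochberg adjusted p = 0.29), and of −0.12 with the ribosomal RNA entries removed. Lef1 was nearly undetected, at 0.00778 to 0.0129 FPKM with the siRNA and 0.00690 to 0.0949 FPKM in controls, the highest in control library 1. A further Tcf factor gene, Tcf7l2, falls outside the member rule. It had 4.25 ± 0.515 FPKM with the siRNA and 3.77 ± 1.17 FPKM in controls (SD, n = 3 each), with overlap. Its log2 fold change was 0.16 (SE 0.17; limma, Benjamini-Hochberg adjusted p = 0.628).

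Beyond the members, 108 further pathway genes had an entry and 77 of them were tested. None rose or fell (limma with Benjamini-Hochberg adjustment), with 1 higher and 12 lower at an unadjusted p below 0.05, against 1.83% of all entries higher and 15.5% lower. Their median log2 fold change was −0.14, beside −0.12 over all entries. The 13 canonical targets tested had a median of −0.02. Ccnd1, the cyclin of early cell cycle entry, had 333 ± 21.2 FPKM with the siRNA and 348 ± 32.6 FPKM in controls (SD, n = 3 each). Fosl1, an AP-1 subunit gene, had 2.96 ± 0.326 FPKM with the siRNA and 1.76 ± 0.635 FPKM in controls (log2 fold change of 0.54, SE 0.18; limma, Benjamini-Hochberg adjusted p = 0.208). Birc5, the survivin gene, which is also a mitotic gene, had 23.9 ± 0.315 FPKM with the siRNA and 32.6 ± 2.88 FPKM in controls (log2 fold change of −0.43, SE 0.10; limma, Benjamini-Hochberg adjusted p = 0.143).

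The 6 tested modulators outside the cell had a median log2 fold change of −0.29, beside −0.12 over all entries, and of −0.12 with the 9 ribosomal RNA entries removed, beside 0.06 over all entries. All 6 values were negative, as were 10568 of all 13702, but Reck and Tmem198 were at 0.04 and 0.05 with those entries removed and also above 0 with median-of-ratios scaling. Draxin, an axon guidance protein that antagonizes Wnt signals, had 4.05, 4.50 and 3.48 FPKM in siRNA libraries 1 to 3, against 5.65, 5.73 and 6.12 FPKM in control libraries 1 to 3 (log2 fold change of −0.45, SE 0.11; limma, Benjamini-Hochberg adjusted p = 0.155). The groups did not overlap. With library weights Draxin and Birc5 passed (adjusted p = 0.0487 and 0.0377, limma). Reck, a co-receptor for Wnt7 ligands, had 1.54 ± 0.232 FPKM with the siRNA and 1.69 ± 0.191 FPKM in controls (SD, n = 3 each). Named after their values were seen, and under the filter, were Frzb, Rspo1, Sp8 and Ascl2. Frzb, another secreted frizzled-related protein gene, had 0.407 ± 0.0681 FPKM with the siRNA and 0.836 ± 0.141 FPKM in controls. Rspo1, a ligand of the Lgr receptors, had 0.146 ± 0.0340 FPKM with the siRNA and 0.362 ± 0.0793 FPKM in controls. The canonical target Ascl2 was at 0 with the siRNA and 0.116 ± 0.0621 FPKM in controls. These lay below all controls, as did 5.13% of entries under the filter and above 0 in a library. The canonical target Sp8 lay above all controls, as did 6.3% of such entries, at 1.24 ± 0.231 FPKM with the siRNA and 0.699 ± 0.0916 FPKM in controls.

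Of 14 genes of planar polarity and alternative receptors, Ryk was the most abundant, with 21.1 ± 1.67 FPKM with the siRNA and 24.3 ± 1.24 FPKM in controls. Daam2 had 5.26 ± 1.32 FPKM with the siRNA and 4.54 ± 1.45 FPKM in controls, and the polarity gene Prickle2 had 2.69 ± 0.194 FPKM with the siRNA and 3.61 ± 0.0696 FPKM in controls (SD, n = 3 each; log2 fold change of −0.32, SE 0.10; limma, Benjamini-Hochberg adjusted p = 0.198). Of 22 partners of the destruction complex, Skp1a was the most abundant, with 61.3 ± 7.70 FPKM with the siRNA and 75.0 ± 3.64 FPKM in controls. The F-box genes Btrc and Fbxw11, whose products recognise marked β-catenin, had 6.47 ± 3.14 FPKM with the siRNA and 5.18 ± 0.596 FPKM in controls, and 8.33 ± 5.94 FPKM with the siRNA and 12.4 ± 3.10 FPKM in controls, with siRNA library 3 the highest siRNA library for both. Of 22 nuclear co-factors, Smarca4 had 53.6 ± 4.29 FPKM with the siRNA and 60.9 ± 3.01 FPKM in controls, Crebbp 9.19 ± 1.22 FPKM with the siRNA and 7.99 ± 0.811 FPKM in controls, and the co-repressor gene Ctbp1 40.1 ± 3.20 FPKM with the siRNA and 51.9 ± 4.71 FPKM in controls (log2 fold change of −0.36, SE 0.11; limma, Benjamini-Hochberg adjusted p = 0.194).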

How the data were processed

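Poly(A)-selected RNA was sequenced from both ends of each fragment in 6 libraries. The deposited FPKM values were made by the authors. The tools named are edgeR, HISAT and StringTie, and the build mm9, per the submitters' processing notes. The labels describe a kit that marks the second strand and adapters with molecular identifiers. Whether either entered the counting, the versions and the annotation are not stated. Of the 32 members tested, 9 share exon sequence with another gene of GENCODE M21 (a later build), Ctnnb1 with Ulk4 and Axin2 with Gm11670 among them. These other genes lie on the opposite strand, apart from Mir7090 in Ctnnb1 and Mir324 in Dvl2. Unless the strand entered the counting, reads from opposite strands may not be told apart.

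For entries averaging 1 FPKM or more, log2(FPKM + 1) was compared with limma 3.58.1 in R 4.3.3 (mean-variance trend, two-sided), siRNA circHIPK2 minus control, with Benjamini-Hochberg adjustment over all 13702 entries and calls at 0.05. This scale understates changes of weakly expressed genes. The steps were tested on simulated data.

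Depth was estimated from genes with 1 GENCODE transcript, 500 nt or longer, as the number of fragments at which the largest share of low values fell near whole multiples. Between 37.1% and 40.5% lay within 0.05 steps of one, against 10% by chance.

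The members and lists were chosen with earlier results of these data known. Named with library values were, per role, the most abundant tested member and those with the highest and lowest log2 fold change, and for further pathway lists the same genes, mostly by mean. Other tested members are given by mean and SD, as is Tcf7l2, named beyond this rule as a further Tcf factor. Genes under the filter, and the ratios, were picked after their values were seen. The alternatives were other pseudocounts, filters, scalings and limma settings, the replicate number as a block, and each library left out. Promoters were found in RefSeq for 38 of 57 members.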

Additional observations from a re-analysis of the deposited data

How the results depend on the processing

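No member was called under 16 of 17 alternatives; with library weights 1 was (Ctnnb1), as were 2 further pathway genes (Draxin and Birc5), among 320 entries, 55 higher and 265 lower. Over all entries, where 16 were called higher and 19 lower, the median-of-ratios scaling called 14 (3 and 11), quantile normalization 16 (4 and 12), a minimum mean of 5 FPKM 22 with 8 lower, no filter 7 higher and robust moderation 8 higher. Leaving out 1 library gave 8 to 35 calls, 2 to 15 higher and 6 to 23 lower, the fewest without siRNA library 3. Calls numbered 22, 8 of them higher, without control library 3, while 10 were higher without control library 2 and 12 lower without control library 1. No member or further pathway gene was called in any of these 6 fits. The cause of these shifts was not tested.

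Deviations of same-numbered libraries from their group means correlated at 0.05, 0.02 and 0.13, and those of differently numbered libraries at −0.17 to 0.12. siRNA library 3 correlated best with control library 3. However, siRNA library 1 correlated best with control library 2 (0.12) and siRNA library 2 with control library 3 (0.03). With 3 libraries a group these values cannot settle whether the numbers pair the libraries. With the replicate block 46 entries and 0 members were called.

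Signs of small differences depended on scaling, none of them called. The median of all entries moved too, from −0.12 to −0.0012 with median-of-ratios scaling and to 0.058 with the 9 ribosomal RNA entries removed. With that removal Znrf3, Lgr5, Wnt7b, Wnt4, Lrp6, Reck and Smarca4 turned positive but stayed below this median. With median-of-ratios scaling the log2 fold changes were 0.094 for Fzd9, 0.059 for Tcf7l1, 0.0044 for Wls, 0.0074 for Porcn, 0.00081 for Reck and 0.077 for Ccnd1. With quantile normalization they were 0.11 for Fzd9, 0.047 for Tcf7l1, 0.0085 for Smarca4 and 0.18 for Ccnd1. With the 9 ribosomal RNA entries removed they were 0.16 for Fzd9, 0.043 for Znrf3, 2.0e-05 for Lgr5, 0.12 for Tcf7l1, 0.031 for Wnt7b, 0.026 for Wnt4, 0.028 for Lrp6, 0.066 for Wls, 0.065 for Porcn, 0.042 for Reck, 0.021 for Smarca4 and 0.15 for Ccnd1. With library weights they were 0.018 for Tcf7l1, −0.073 for Axin2 and −0.26 for Btrc. Over fits that left out 1 library they ran from −0.085 to 0.15 for Axin2, −0.15 to 0.022 for Fzd9, −0.22 to 0.016 for Lgr5, −0.17 to 0.064 for Tcf7l1 and −0.11 to 0.55 for Btrc. Ctnnb1, Nkd1, Wnt7a, Sfrp2, Fzd2, Tcf7 and Lrp5 stayed negative, and Fzd1 positive, under every alternative in which they were tested. With the ribosomal RNA entries removed Fzd2 and Tcf7 were at −0.12, Sfrp2 at −0.29 and Lrp5 at −0.27. The median of all entries was then 0.06, against −0.12 in the main fit. Lrp5 was at −0.19 with library weights. With 1 library left out Lrp5 ran from −0.65 (without siRNA library 1) to −0.27 (without siRNA library 2). Members averaging under 5 FPKM gave no value with that minimum.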
